A study of Mus musculus with 8 samples.

Results

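Glucose uptake and the first committed steps of its breakdown were described in adipose tissue macrophages (ATMs) through 10 listed genes, chosen by exact gene symbol in the annotation of the array's probe sets. They were the glucose transporters Slc2a1 and Slc2a3, the hexokinases Hk1, Hk2 and Hk3, the isomerase Gpi1, the phosphofructokinases Pfkl, Pfkm and Pfkp, and the regulatory enzyme Pfkfb3. Of these, 9 were measured among 18820 genes on the array, each by 1 probe set, and Gpi1 was not analysed here. ATMs were isolated from epididymal fat of male wildtype C57Bl/6 mice with magnetic beads against the macrophage surface protein encoded by Adgre1, and 4 separate experiments each gave 1 pool from obese mice on a lard-based high-fat diet (HFD) and 1 pool from lean mice on a matched low-fat diet (LFD). Each array held RNA from a pool of 4 to 7 mice. Fat supplied 10% of the energy of the LFD, and 45% (experiments 1 and 3) or 60% (experiments 2 and 4) of that of the HFD. The diets lasted 16, 15, 16 and 10 weeks in experiments 1, 2, 3 and 4 according to the sample labels. The study's methods differ from the labels here and give all mice the longest of these durations. The age of the mice is not given in the sources used here. The question was whether ATMs from obese vs lean mice differed in these genes, and whether isoforms of one enzyme differed alike.

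Glucose enters macrophages down its gradient through facilitative transporters, of which GLUT1 (Slc2a1) and GLUT3 (Slc2a3) are high-affinity forms. Hexokinases then phosphorylate glucose to glucose 6-phosphate, which cannot leave through these transporters. Gpi1 converts this to fructose 6-phosphate, and phosphofructokinase, a tetramer built from liver-type (Pfkl), muscle-type (Pfkm) and platelet-type (Pfkp) subunits, catalyses the committed step of glycolysis. Pfkfb3 makes fructose 2,6-bisphosphate, a strong activator of phosphofructokinase. In macrophages, GLUT1 and glycolysis are known for their part in inflammatory activation, and several of these genes are known targets of the hypoxia-inducible factor HIF-1.

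The promoters of the 4 genes with the largest positive differences between obese and lean pools are shown because their diet differences are described below and because HIF-1 is a known regulator of several genes of this step. The sequences are RefSeq promoters of the GRCm38.p6 build, each 300 bases long (250 before and 50 after the start), written 5′ to 3′ on the strand of the gene. They cover chr4:119108495-119108794 on the plus strand for Slc2a1, chr6:82774405-82774704 on the minus strand for Hk2, chr13:55021336-55021635 on the minus strand for Hk3 and chr13:6648722-6649021 on the minus strand for Pfkp. Capitals mark ACGTG or GCGTG, the core letters of HIF-binding sites, on either strand (CACGT or CACGC when read along the gene).
Slc2a1: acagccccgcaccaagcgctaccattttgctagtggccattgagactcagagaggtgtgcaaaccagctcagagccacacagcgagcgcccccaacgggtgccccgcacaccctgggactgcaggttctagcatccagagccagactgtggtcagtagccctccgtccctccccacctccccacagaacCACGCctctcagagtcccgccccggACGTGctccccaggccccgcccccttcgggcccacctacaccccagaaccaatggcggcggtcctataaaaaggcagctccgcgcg
Hk2: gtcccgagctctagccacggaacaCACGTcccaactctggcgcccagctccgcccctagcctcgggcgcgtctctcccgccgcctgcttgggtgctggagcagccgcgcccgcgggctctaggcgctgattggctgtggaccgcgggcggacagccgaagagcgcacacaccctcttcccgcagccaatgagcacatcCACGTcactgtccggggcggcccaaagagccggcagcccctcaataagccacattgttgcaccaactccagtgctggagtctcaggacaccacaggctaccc
Hk3: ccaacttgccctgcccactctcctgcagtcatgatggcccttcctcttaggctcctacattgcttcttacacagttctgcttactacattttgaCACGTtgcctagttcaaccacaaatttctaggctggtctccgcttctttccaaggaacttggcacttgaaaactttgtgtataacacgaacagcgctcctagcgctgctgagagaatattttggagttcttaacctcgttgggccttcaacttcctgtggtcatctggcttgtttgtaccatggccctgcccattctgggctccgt
Pfkp: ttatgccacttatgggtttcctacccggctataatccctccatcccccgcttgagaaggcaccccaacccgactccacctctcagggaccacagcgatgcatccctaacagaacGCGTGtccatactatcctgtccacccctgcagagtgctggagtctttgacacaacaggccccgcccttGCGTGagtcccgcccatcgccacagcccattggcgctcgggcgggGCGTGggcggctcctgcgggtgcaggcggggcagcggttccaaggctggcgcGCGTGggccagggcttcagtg
The Slc2a1 window held 1 ACGTG and 1 GCGTG, the Hk2 window held 2 ACGTG, the Hk3 window held 1 ACGTG, and the Pfkp window held 4 GCGTG with 0 ACGTG. Among all 32851 promoters of that length, 19.6% held ACGTG, 32.4% held GCGTG and 43.8% held at least one of them, so a match is common. A promoter was found for 9 of the 10 listed genes, 14 promoters in all, and 11 of the 14 held ACGTG or GCGTG. These 9 include Gpi1, which was not analysed here, and lack Slc2a3. Pfkm had 4 of the windows, some of which overlap, so a match can count more than once. Genes with a difference near 0 or below 0 held matches too. With both strands counted, 1 Hk1 window held 2 ACGTG and 3 GCGTG, and 1 Pfkfb3 window held 2 of each. A Pfkm window held 3 ACGTG. These counts exceed the separate places. In the Pfkm and Pfkfb3 windows, 1 CACGTG reads as ACGTG on both strands and was counted on each. In the Hk1 window, GCGTG matches on the 2 strands overlap. The mean differences of Hk1, Pfkfb3 and Pfkm were 0.02, −0.38 and −0.29. A match describes the letters of the window and is not a measured site, and its part in the diet differences was not tested.

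The log2 levels below are the deposited array values, and no probe set's level is set against that of another probe set. The array medians lay between 4.25 and 4.39. The arrays of experiment 1 stood apart. The mean level of 10 macrophage markers was 8.98 in its obese pool and 7.74 in its lean pool, whereas the other 6 arrays lay between 10.23 and 10.85. The mean of 12 endothelial markers was 10.40 in its obese pool and 10.71 in its lean pool, whereas the other 6 arrays lay between 5.92 and 9.18. Endothelial markers differed between the diets by −0.31, −0.81, 1.98 and −1.72 in experiments 1 to 4, so they had no common direction. All 6 neutrophil markers measured were dim, with a highest level of 4.29. Adgre1 had levels of 8.58, 10.70, 10.67 and 10.19 in the obese pools and 6.54, 10.27, 10.95 and 9.95 in the lean pools of experiments 1 to 4. Differences are therefore also given within experiments, and without experiment 1 for the results it moved most.

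**Figure D1:**
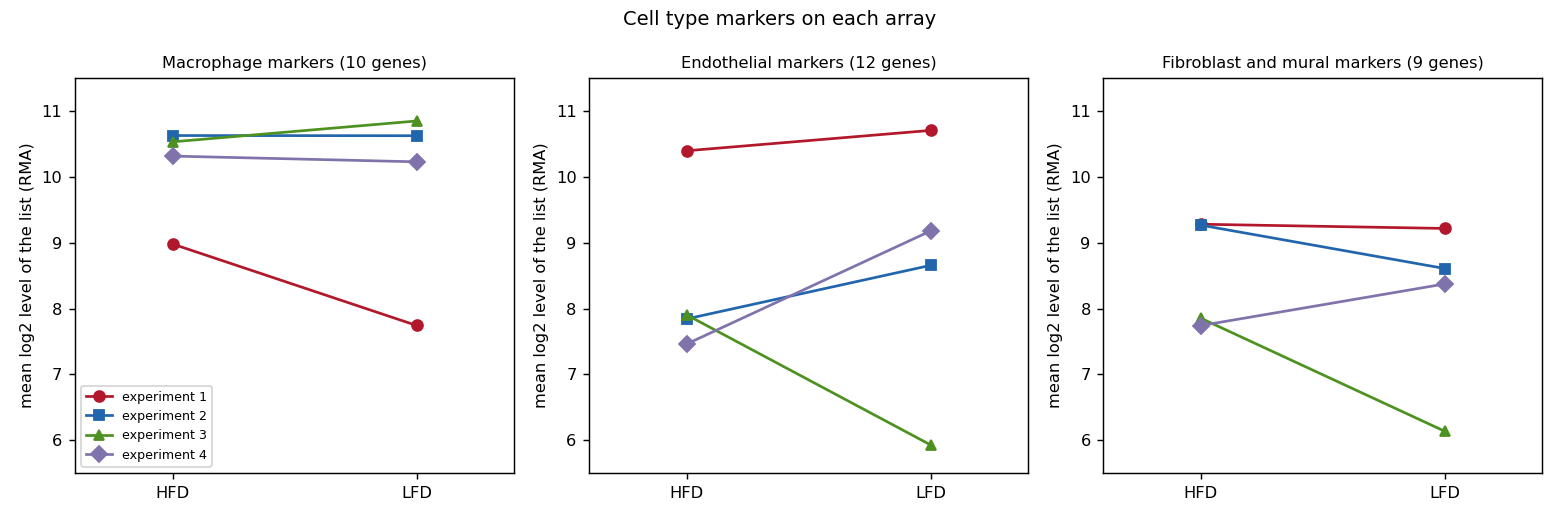
Mean log2 level of the macrophage (10 genes), endothelial (12 genes) and fibroblast and mural (9 genes) marker lists on each array, with HFD left of LFD and a line joining the 2 pools of an experiment. Both experiment 1 arrays had the lowest macrophage means and the highest endothelial means of the 8 arrays.

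Across the 9 measured genes, the obese pools had the higher mean for 6 and the lower mean for 3. Hk3 and Pfkp were higher in obese than in lean pools in all 4 experiments, whereas Pfkm and Pfkfb3 were lower in all 4, although under median centring of the arrays the Pfkfb3 difference in experiment 4 was 0.07. Of all 18820 genes, 11.0% were higher and 7.43% lower in all 4 experiments, which sets the background for these 2 and 2 of 9. None of the 9 genes passed limma's Benjamini-Hochberg threshold of 0.05 over all genes, nor did any other gene (background 0%), and the smallest adjusted p among the 9 was 0.982. At an unadjusted p below 0.05 limma and the methods' t-test each counted 0 of the 9, against 4.81% of all genes by limma. With experiment as a block, 3 of the 9 were higher (Hk2, Hk3 and Pfkp; background 7.95%) and 1 was lower (Pfkm; background 4.16%) at an unadjusted p below 0.05, but none passed after adjustment (smallest adjusted p = 0.243, limma with the block). The obese and lean groups did not separate for any of the 9, against 1.87% of all genes. The median difference of the 9 genes was 0.15, beside 0.0049 for all genes. The means of 2 marker lists also kept 1 sign in all 4 experiments. The mean of 4 proliferation markers (5 listed) was 6.06 to 6.83 in obese pools and 5.39 to 6.34 in lean pools, with differences of 0.66, 0.89, 0.81 and 0.14. Mki67 and Birc5 were higher in all 4 experiments, whereas Top2a and Cdk1 were lower in experiment 4 (−0.003 and −0.19). The mean of 3 B cell markers (4 listed) was 3.85 to 4.13 in obese pools and 4.04 to 4.64 in lean pools. Its differences were −0.20, −0.35, −0.57 and −0.57. Of these 3 markers, only Cd79b was lower in all 4 experiments (−0.42, −0.60, −1.72 and −0.78). Cd79a and Ms4a1 were dim, and Cd79a differed by 0.13, 0.05, 0.22 and −0.95. The part of these 2 marker lists in the differences of the glycolytic genes, here and in the lists below, was not tested.

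**Figure D2:**
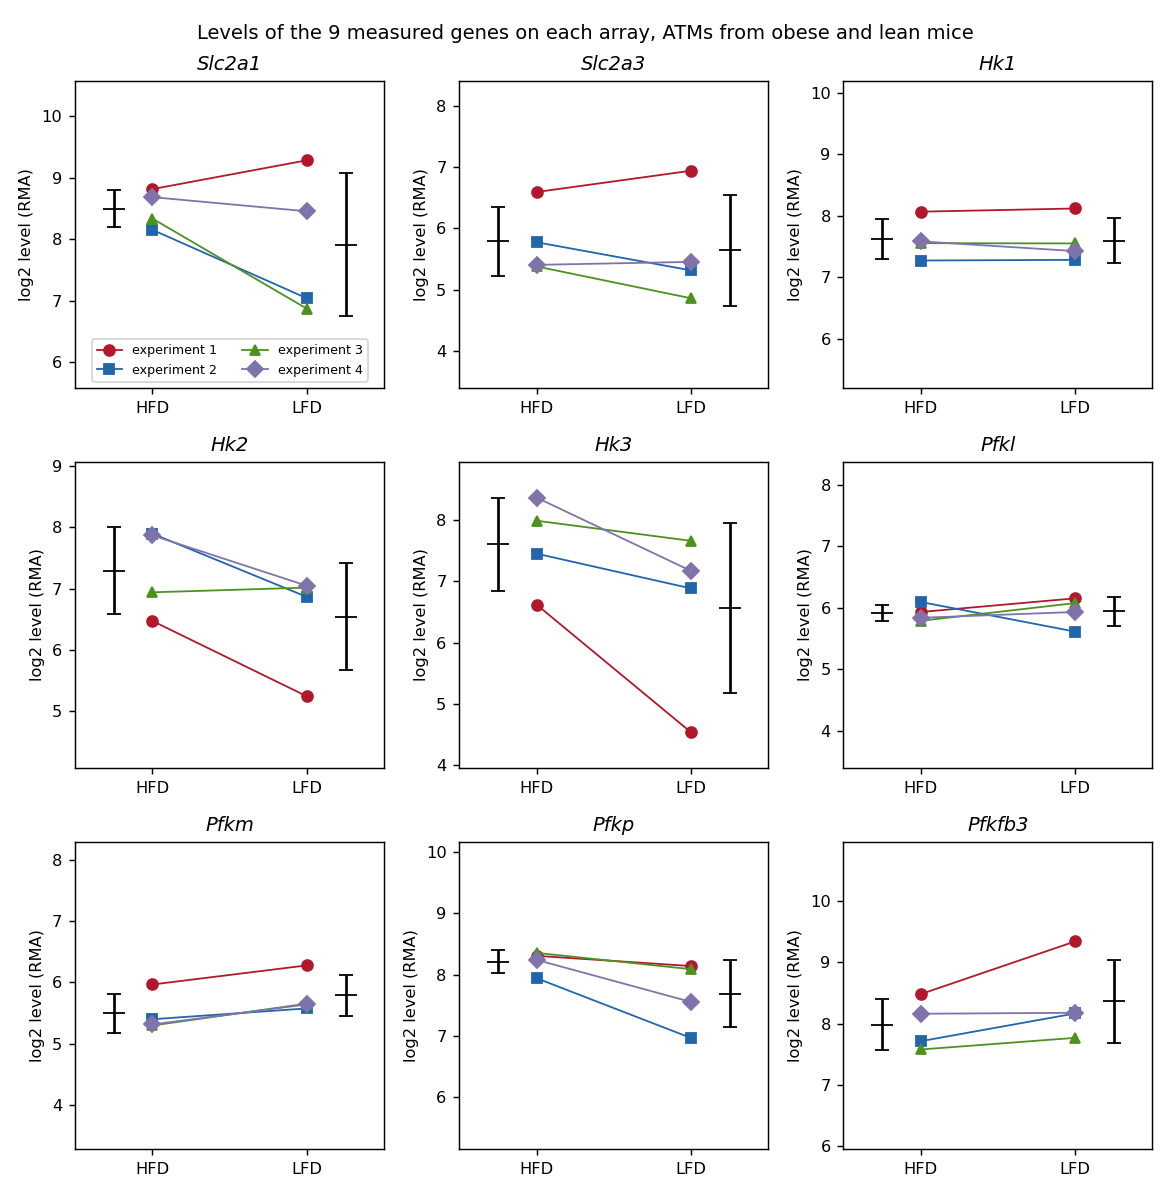
Deposited log2 level of each of the 9 measured genes on every array, with HFD left of LFD a line joining the 2 pools of one experiment, and black bars for the mean ± SD of each diet (n = 4). The lines of Hk3 and Pfkp slope one way in all 4 experiments, with the obese pool higher, and those of Pfkm and Pfkfb3 the other way, with the Pfkfb3 pools of experiment 4 nearly level and turned to 0.07 by median centring.

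Slc2a1, which encodes the main glucose transporter of activated macrophages, had log2 levels of 8.82, 8.15, 8.34 and 8.69 in the obese pools of experiments 1 to 4, against 9.29, 7.04, 6.87 and 8.46 in the lean pools. The obese pools lay close together, whereas the lean pools spread over more than the whole range of the obese pools, and the groups overlapped. The mean was 8.50 ± 0.31 in obese pools and 7.91 ± 1.16 in lean pools (SD, n = 4 each), a difference of 0.59 (SE 0.53), or 1.50-fold (limma, adjusted p = 0.999). Within experiments Slc2a1 differed by −0.47, 1.12, 1.47 and 0.23, so experiment 1 ran opposite to the other 3, whose mean was 0.94 (SE 0.43). The difference also rested on the low lean pools, since it was 0.30 without the lean array of experiment 2, 0.24 without that of experiment 3 and 1.04 without that of experiment 1. In the lean pools, Slc2a1 and the mean of the endothelial markers had the same order, highest in experiment 1, then 4, 2 and 3, and in the obese pools both were highest in experiment 1 but the others were in different orders. Endothelial cells are known to express GLUT1, and the part of the endothelial markers in the Slc2a1 result was not tested. In these bulk pools, fewer cells of a type and less RNA per cell cannot be told apart.

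Slc2a3, which encodes the high-affinity transporter GLUT3, had levels of 6.59, 5.78, 5.38 and 5.41 in obese pools, against 6.94, 5.32, 4.86 and 5.46 in lean pools. Both experiment 1 pools stood above the other 6, and the groups overlapped over nearly the whole of their ranges. The mean difference was 0.15 (SE 0.47), with differences of −0.35, 0.46, 0.52 and −0.05 within experiments (limma, adjusted p = 0.999). It was 0.31 without experiment 1 and 0.58 without its lean array alone. The sign turned to −0.12 without the obese array of experiment 1 and to −0.11 without the lean array of experiment 3. Both transporters were thus lower in the obese than in the lean pool of experiment 1 and higher in the obese pools of experiments 2 and 3.

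Hk3, the hexokinase of myeloid cells, had the largest difference of the 9 genes. Its levels were 6.62, 7.45, 7.99 and 8.36 in obese pools, against 4.54, 6.88, 7.66 and 7.17 in lean pools. The obese pool was higher in each experiment, but the groups overlapped. The lean pool of experiment 1 stood far below the other 7 arrays, and the obese pool of experiment 1 was next lowest. The mean was 7.61 ± 0.76 in obese pools and 6.56 ± 1.39 in lean pools (SD, n = 4 each), a difference of 1.04 (SE 0.70), or 2.06-fold (limma, adjusted p = 0.990, and 0.274 with the block). Within experiments the differences were 2.08, 0.57, 0.33 and 1.19, and without experiment 1 the mean difference was 0.70 (SE 0.29). The macrophage marker mean differed between the diets by 1.24, 0.0026, −0.32 and 0.09 in the same experiments. Without the lean array of experiment 1 alone, the difference was 0.37. The part of macrophage RNA content in the experiment 1 value was not tested.

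Hk2, the insulin- and hypoxia-responsive hexokinase of muscle and fat, had levels of 6.47, 7.90, 6.94 and 7.87 in obese pools, against 5.25, 6.87, 7.02 and 7.05 in lean pools. It was higher in obese pools in 3 experiments, and the pools of experiment 3 nearly matched. The mean was 7.30 ± 0.70 in obese pools and 6.54 ± 0.87 in lean pools (SD, n = 4 each), a difference of 0.75 (SE 0.50), or 1.68-fold (limma, adjusted p = 0.990, and 0.289 with the block). Within experiments Hk2 differed by 1.23, 1.03, −0.08 and 0.82. The mean difference was 0.59 (SE 0.27) without experiment 1 and 0.32 without its lean array alone, which lay well below the others.

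Hk1, the hexokinase expressed in most tissues, had levels of 8.07, 7.27, 7.56 and 7.58 in obese pools, against 8.12, 7.28, 7.55 and 7.43 in lean pools. The pools of one experiment lay within 0.16 of each other. Its difference was 0.02 (SE 0.23), and the sign turned to −0.027 under median centring and to −0.017 when the arrays were quantile normalised again. Experiment accounted for 98.1% of its sum of squares over the 8 arrays and diet for 0.169%.

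Pfkp, the platelet-type subunit, had levels of 8.31, 7.94, 8.36 and 8.24 in obese pools, against 8.14, 6.97, 8.09 and 7.56 in lean pools. The obese pool was higher in every experiment, and only the lean pools of experiments 1 and 3 reached into the range of the obese pools. The mean was 8.21 ± 0.18 in obese pools and 7.69 ± 0.55 in lean pools (SD, n = 4 each), a difference of 0.52 (SE 0.26), or 1.44-fold (limma, adjusted p = 0.982, and 0.290 with the block). Within experiments Pfkp differed by 0.17, 0.97, 0.27 and 0.69, and without the lean array of experiment 2 the mean difference was 0.28. The larger differences were those of experiments 2 and 4. Of the 9 genes, Pfkp was the only one with an unadjusted p below 0.05 for the difference between fat contents, 0.83 at 60% and 0.22 at 45% of energy from fat (limma, adjusted p = 0.951). Such a p was reached by 3.95% of all genes and an adjusted one by 0%, and the fat content and the time on diet cannot be told apart from other differences between the experiments.

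Pfkm, the muscle-type subunit, had levels of 5.96, 5.40, 5.30 and 5.31 in obese pools, against 6.28, 5.57, 5.65 and 5.64 in lean pools. Both pools of experiment 1 were above the other 6, and in those 6 every obese pool lay below every lean pool. The difference was −0.29 (SE 0.21), 1.22-fold higher in lean pools (limma, adjusted p = 0.990, and 0.243 with the block). Within experiments it was −0.31, −0.18, −0.36 and −0.33, the narrowest spread among those of the 9 measured genes that kept 1 sign. Without experiment 1 the difference was −0.29 (SE 0.08, n = 3 each), with an adjusted p of 0.404 by limma. It was −0.13 without the lean array of experiment 1 alone and −0.45 without the obese one alone.

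Pfkl, the liver-type subunit, had levels of 5.93, 6.10, 5.79 and 5.84 in obese pools, against 6.15, 5.61, 6.08 and 5.93 in lean pools. The groups overlapped throughout, and only experiment 2 had the higher level in the obese pool. The difference was −0.03 (SE 0.13), with values of −0.22, 0.48, −0.29 and −0.10 within experiments (limma, adjusted p = 0.999).

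Pfkfb3, whose product raises phosphofructokinase activity through fructose 2,6-bisphosphate, had levels of 8.48, 7.71, 7.58 and 8.16 in obese pools, against 9.34, 8.17, 7.77 and 8.18 in lean pools. The lean pool of experiment 1 was the highest array, and the pools of experiment 4 nearly matched. The difference was −0.38 (SE 0.36), 1.30-fold higher in lean pools (limma, adjusted p = 0.999, and 0.414 with the block). Within experiments Pfkfb3 differed by −0.86, −0.45, −0.19 and −0.02, and without experiment 1 the mean difference was −0.22. Without the lean array of experiment 1 alone, it was −0.05.

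**Figure D3:**
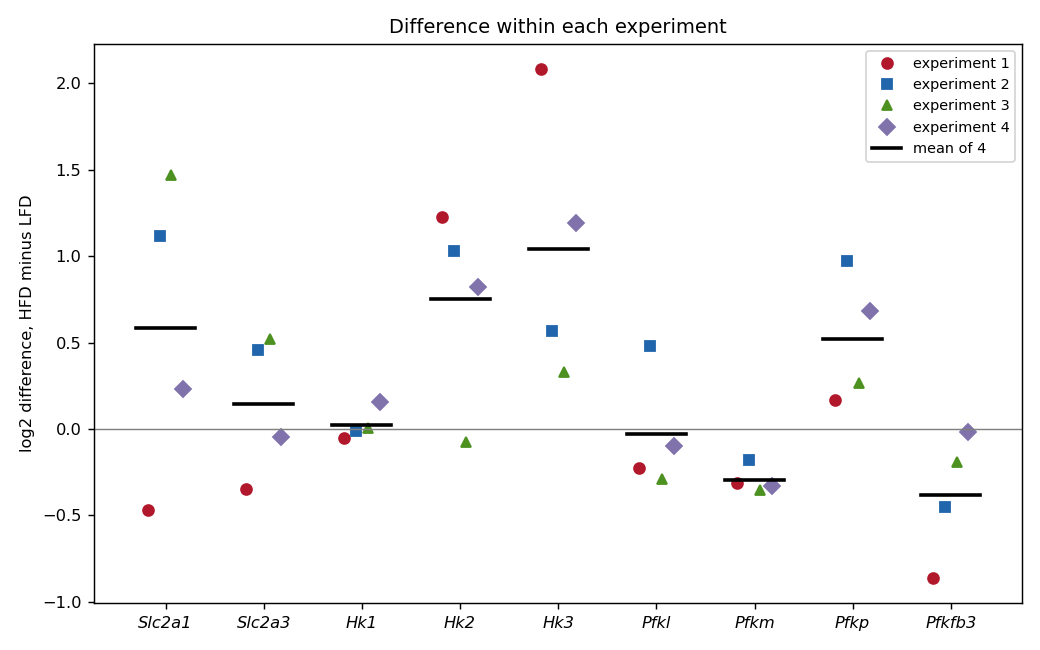
Log2 difference (HFD minus LFD) of each of the 9 measured genes within each experiment, with the mean of the 4 experiments. Hk3 has the largest mean (1.04) and Pfkfb3 the lowest (−0.38), and the 4 values of Hk1 and of Pfkm lie close together.

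Isoforms of one enzyme were compared through their log2 ratio on the same array, so that the diet difference of one isoform was set against that of another. The size of such a ratio also depends on the probes, so only its difference between diets is read. The SE of a ratio is taken over the 4 differences within experiments, whereas the permutation test ignores the pairing. The SEs of single genes above are limma's without the block, so the 2 kinds measure different spreads. With the block, limma's SE was 0.16 for Pfkp, 0.08 for Pfkm and 0.15 for Pfkl. Of the 7 pairs compared, the phosphofructokinase pairs differed most evenly. The ratio of Pfkp to Pfkm was 2.34, 2.55, 3.06 and 2.93 in obese pools, against 1.87, 1.39, 2.44 and 1.92 in lean pools. Only the lean pool of experiment 3 reached into the range of the obese pools. Its mean was 2.72 ± 0.33 in obese pools and 1.90 ± 0.43 in lean pools (SD, n = 4 each), a difference of 0.82 (SE 0.16 over 4 experiments), higher in 4 of 4 experiments (exact two-sided permutation test, p = 0.0571, adjusted p = 0.3 over the 7 pairs). The ratio of Pfkp to Pfkl was 2.38, 1.85, 2.57 and 2.40 in obese pools, against 1.99, 1.36, 2.01 and 1.62 in lean pools. The difference was 0.55 (SE 0.08), and within experiments it was 0.39, 0.49, 0.55 and 0.78 (exact two-sided permutation test, p = 0.0857, adjusted p = 0.3). The ratio of Pfkl to Pfkm was also higher in obese pools in 4 of 4 experiments, by 0.26 (SE 0.14; exact permutation test, p = 0.229, adjusted p = 0.5).

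Among hexokinases, the ratio of Hk3 to Hk1 was higher in obese pools in 4 of 4 experiments, with differences of 2.13, 0.58, 0.32 and 1.04 and a mean of 1.02 (SE 0.40; exact permutation test, p = 0.4, adjusted p = 0.543). That difference was 0.65 without experiment 1 and 0.17 without its lean array alone. The ratio of Hk2 to Hk1 was higher in 3 of 4 experiments, with a mean difference of 0.73 (SE 0.30; exact permutation test, p = 0.514, adjusted p = 0.543). It was 0.54 without experiment 1 and 0.12 without its lean array alone. Hk3 and Hk2 differed from each other by 0.29 (SE 0.27), with values of 0.85, −0.47, 0.40 and 0.37 within experiments (exact permutation test, p = 0.543, adjusted p = 0.543). The ratio of Slc2a1 to Slc2a3 differed by 0.44 (SE 0.23), with values of −0.12, 0.66, 0.95 and 0.28 (exact permutation test, p = 0.286, adjusted p = 0.5). No pair passed the threshold of 0.05. Permuting 4 against 4 arrays cannot give a p below 0.0286, and sign flips over the 4 experiments cannot go below 0.125, the value that the 4 pairs of one sign in all experiments gave.

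**Figure D4:**
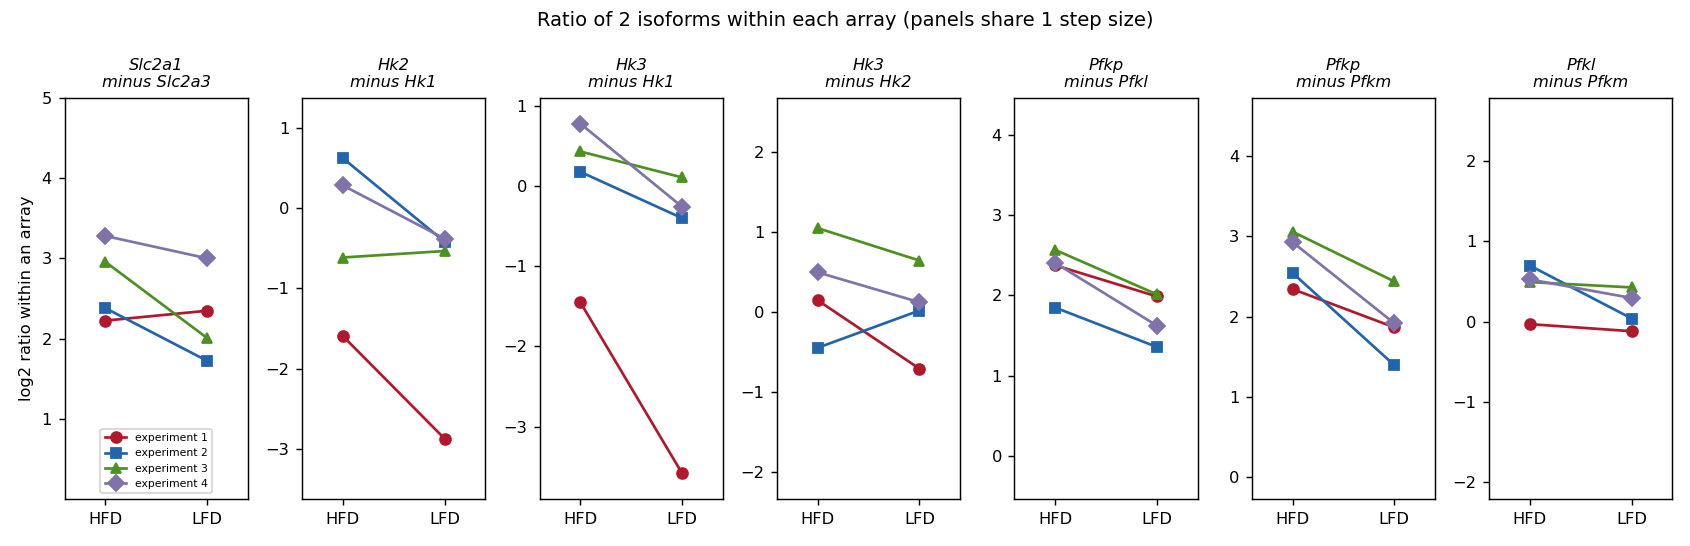
Log2 ratio of 2 isoforms on each array for the 7 pairs, with HFD left of LFD and a line joining the pools of one experiment. The ratios of Pfkp to Pfkl and of Pfkp to Pfkm were higher in the obese pool of every experiment, and the lowest ratios to Hk1 were those of the lean pool of experiment 1.

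For all 9 genes the experiment, with 3 degrees of freedom, took up more of the sum of squares over the 8 arrays than the diet with 1. The share of experiment was 18.0% for Pfkl and between 51.1% (Pfkp) and 98.1% (Hk1) for the other 8 genes. The largest share of diet was 35.3%, for Pfkp. Both arrays of experiment 1 were above the other 6 for Slc2a1, Slc2a3, Hk1, Pfkm and Pfkfb3, 5 of 9 genes beside 16.4% of all genes. Both were below the other 6 for Hk2 and Hk3, 2 of 9 beside 14.9% of all genes. The low macrophage and high endothelial marker means of the experiment 1 arrays went with these levels, and their part was not tested.

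Other genes of glucose handling were taken from lists around these steps, and none of their genes passed limma's adjusted threshold without the block or with it. Of 12 other hexose transporters, all measured and 8 of them dim, 0 had an unadjusted p below 0.05 in either direction, beside 3.30% of all genes higher and 1.51% lower, and the median difference was 0.02. The myeloid transporter Slc2a6 differed by 0.21 (SE 0.32) and Slc2a10 by −0.33 (SE 0.44). Slc2a10 was lower in obese pools in all 4 experiments under each scaling. With the block, it was the 1 transporter with an unadjusted p below 0.05, beside 4.16% of all genes lower. Of 15 other enzymes and regulators of upper glycolysis measured among 18 listed, 1 was higher at an unadjusted p below 0.05 and 0 were lower, with a median of 0.01. That gene was the hexokinase-like Hkdc1, which was dim and was chosen after its values were seen, at 3.34, 3.34, 3.58 and 3.40 in obese pools and 3.06, 3.02, 3.16 and 3.40 in lean pools. With the block, the counts of this list were again 1 higher (Hkdc1) and 0 lower, beside 7.95% and 4.16% of all genes. The phosphoglucomutase Pgm2 differed by 0.23 (SE 0.23) and the testis-type dehydrogenase Gapdhs by −0.19 (SE 0.15).

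Of the steps from aldolase to lactate export, 14 genes were measured among 15 listed. Of these, 6 had an unadjusted p below 0.05 with the higher level in obese pools (limma), 0 had one with the lower level, and 8 were higher in all 4 experiments (7 under median centring), beside 3.30%, 1.51% and 11.0% of all genes. With the block, 8 were higher at an unadjusted p below 0.05, beside 7.95% of all genes. The median was 0.33, beside 0.0049 for all genes. Eno2, an enolase, differed by 1.48 (SE 0.22) and Pgam1, a phosphoglycerate mutase, by 0.75 (SE 0.26).

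Among 19 regulators, 1 was lower in obese pools with an unadjusted p below 0.05 and 0 were higher (1.51% and 3.30% of all genes), with a median of −0.05. With the block, 1 was higher (Myc) and 2 were lower (Txnip and Arrdc4) at an unadjusted p below 0.05, beside 7.95% and 4.16% of all genes. In all 4 experiments 2 were higher and 4 lower (0 and 6 under median centring), beside 11.0% and 7.43% of all genes. The gene below 0.05 without the block was Txnip, an arrestin-like protein that promotes removal of GLUT1 from the cell surface. Its levels were 11.58, 10.53, 10.56 and 10.49 in obese pools, against 11.73, 11.55, 11.23 and 11.32 in lean pools. The obese pools of experiments 2, 3 and 4 lay below all lean pools, and that of experiment 1 lay among them. The difference was −0.67 (SE 0.26; limma, unadjusted p = 0.0342, adjusted p = 0.982), and the within-experiment values of −0.16, −1.02, −0.67 and −0.82 kept their sign under both other scalings. Myc, a transcription factor that raises expression of glycolytic genes, differed by 0.59 (SE 0.34), with values of 0.01, 0.77, 1.26 and 0.31 within experiments, the value of experiment 1 turning to −0.05 under median centring. Hif1a, the oxygen-regulated subunit of HIF-1, had levels of 9.31, 8.39, 8.02 and 8.30 in obese pools and 9.49, 8.32, 8.11 and 8.31 in lean pools, a difference of −0.05 (SE 0.38). HIF-1α is regulated mainly through protein stability, which the arrays do not measure.

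**Figure D5:**
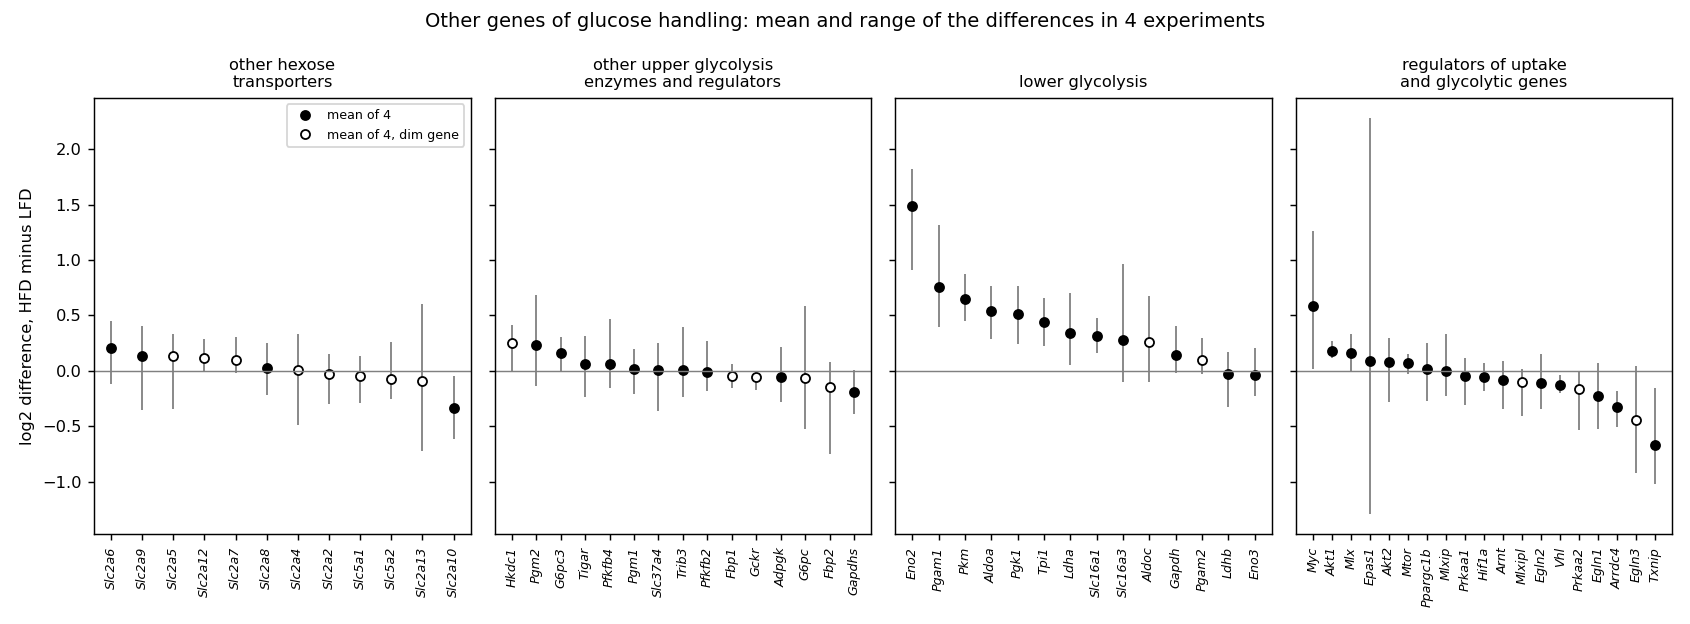
Log2 difference (HFD minus LFD) of each measured gene of the 4 lists around the 9 genes, with points at the mean of the 4 experiments (open for dim genes) and vertical lines over the range of the 4 within-experiment differences. The lower glycolysis genes have a median of 0.33, and the other 3 lists have medians between −0.05 and 0.02.

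Patterns over the arrays were compared after the mean of each experiment was removed, which leaves 4 free differences, so high correlations are common. The description rests on 10614 genes that were not dim, and between 37 (for Pfkfb3) and 362 (for Pfkp) of them had an r above 0.95 with a given member. The closest to Hk3 were 5031439G07Rik (r = 0.998) and Dolpp1 (r = 0.998), those to Hk2 were Nup205 (r = 0.999) and Rab14 (r = 0.999), and those to Hk1 were Fam3a (r = 0.997) and Rock1 (r = 0.995). Slc2a1 was closest to Agpat5 and Shoc2 (r = 0.998 each), and Slc2a3 to Scrn1 (r = 0.998) and Ost4 (r = 0.993). Pfkp was closest to Vcp (r = 0.999) and Ticam1 (r = 0.997), Pfkm to Rnf213 and Prdm11 (r = 0.999 each), Pfkl to Klhl11 (r = 0.992) and Trim12c (r = 0.991), and Pfkfb3 to Emsy (r = 0.998) and Tgfa (r = 0.997).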

How the data were processed

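ATM pools were measured on 8 Affymetrix whole-transcript arrays, 4 per diet. The values deposited by the authors are on the log2 scale. RMA is the tool that the submitters' processing notes give, and its version is not given in the sources used here. RMA corrects background, quantile normalises arrays and summarises the probes of a probe set. Values were analysed as deposited. Precision is limited by the number of arrays. Of 35556 features, 21218 had 1 gene symbol, 1881 several and 12457 none. They gave 18820 genes, each by its brightest probe set, and 18790 matched RefSeq by Entrez ID. A gene was called dim unless it reached a log2 of 4.32 on at least 4 arrays.

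HFD and LFD arrays were compared with limma 3.58.1 in R 4.3.3 (lmFit and eBayes, Benjamini-Hochberg over all genes, threshold 0.05), without a block. The study's statistics section names Student's t test for 2 groups and states no pairing, and its supplementary methods for the arrays were not used here. The experiment number in the labels marks pools of the same experiment, so it pairs the samples. Deviations from the diet means were correlated between its 2 arrays, with r of 0.889, 0.357, 0.652 and 0.186 in experiments 1, 2, 3 and 4. These r are over genes, which are not independent. No correlation was computed between pools of different experiments, so these r do not show the pairing by themselves. Without the block, limma's p-values measure the spread between pools of a diet, which includes differences between experiments. With the block, they measure the spread of the differences within experiments. Ratios of isoforms were tested by exact permutation of the diets over arrays. A difference of exactly 0 counted as neither higher nor lower. Scripts were tested on simulated data.

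The genes and lists were chosen with earlier results of these data known. Named were all listed genes, the 2 genes of each list with the largest difference that were not dim, Hif1a, Txnip and Eno2, and the 2 genes most like each member. Alternatives tried were experiment as a fixed or as a random block, no dim genes, other scalings, the mean of probe sets, another prior, the methods' t-test, each fat content alone, and leaving out each array or experiment. Experiments left out together with the block, and other scalings together with the block, were added after seeing the data.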

Additional observations from a re-analysis of the deposited data

Results flagged for a closer look

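In 5 of 32 groups of 4 pools tested, 1 pool lay farther from the others than Dixon's limit for 4 values allows. Chance gives this in about 1 in 20 independent groups. The groups here share the same 8 arrays, and the ratios reuse the genes, so no excess over chance is read. All 5 flags fell on arrays of experiment 1. Hk2 was at 5.25 in the experiment 1 lean pool, whereas the other 3 lay between 6.87 and 7.05. Pfkm was at 5.96 in the experiment 1 obese pool, whereas the other 3 obese pools lay between 5.30 and 5.40. It was at 6.28 in the experiment 1 lean pool, whereas the other 3 lay between 5.57 and 5.65. The log2 ratio of Hk2 to Hk1 was −2.87 in the experiment 1 lean pool, whereas the other 3 lay between −0.53 and −0.38. The ratio of Hk3 to Hk1 was −3.58 in that lean pool, against −0.40 to 0.11 in the others. The lean pool of experiment 1 also had the lowest macrophage marker mean (7.74) and the highest endothelial marker mean (10.71) of the 8 arrays, and the part of these in the values above was not tested.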

How the results depend on the processing

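None of the 9 genes passed the adjusted threshold in any alternative run. Of the pathway list genes, 1 (Eno2, limma, adjusted p = 0.0316) passed with the replicate block and median centring together, and 0 in the other alternatives. No isoform pair over all arrays passed the exact threshold. The count at an unadjusted p below 0.05, 0 without the block, was 4 with the fixed replicate block (Hk2, Hk3, Pfkp and Pfkm), 1 with the random replicate block (Pfkp), 4 with the block and without dim genes, 5 with the replicate block and either median centring or a second quantile normalisation (the same 4 and Pfkfb3), and 2 in the 60% experiments alone (Hk2 and Pfkp). Such a p was also commoner among all 18820 genes. The genes higher and lower were 1497 and 783 with the fixed block and 1362 and 761 with the random block. With the block they were 979 and 1015 under median centring and 1198 and 1035 after a second quantile normalisation. The 60% experiments alone gave 1222 and 791. The block without dim genes gave 1208 and 508 of 10623 genes. Over all genes, the block without dim genes called 25 (23 higher, 2 lower), of which 0 were members. Fewer genes were tested there. The block with median centring called 70 (65 higher, 5 lower; 0 members), and with a second quantile normalisation 1. Both of these pairings of choices were added after seeing the data. At an unadjusted p below 0.05, 621 genes were higher and 284 lower, against 312 and 402 under median centring and 462 and 455 after a second quantile normalisation, which moved the median difference of all genes to −0.047 and −0.014. Hk1 reversed to −0.027 (median centred) and −0.017 (quantile normalised again), each with or without the block, and −0.024 (45% experiments alone), and Pfkl to 0.19 (60% experiments alone). Median centring left 1 gene lower in all 4 experiments (Pfkm). Slc2a1, Slc2a3, Hk2, Hk3, Pfkm, Pfkp and Pfkfb3 kept their direction under both other scalings and in each fat content alone. The rest of the 13 alternatives other than the leave-outs could not turn a sign. They left the differences of these genes unchanged or repeated those of a scaling.

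Leaving out an array or an experiment, with or without the block, gave ranges of −0.12 to 0.20 for Hk1, −0.20 to 0.055 for Pfkl, −0.12 to 0.58 for Slc2a3, 0.24 to 1.04 for Slc2a1, 0.32 to 1.03 for Hk2, 0.37 to 1.41 for Hk3, −0.45 to −0.13 for Pfkm, 0.28 to 0.67 for Pfkp and −0.58 to −0.05 for Pfkfb3. With the block, Hk1 reversed to −0.020 without experiment 4 and Pfkl to 0.033 and 0.055 without experiments 1 and 3. The counts ranged from 0 to 4 members at an unadjusted p below 0.05, 2 to 3 higher in all experiments left, 2 to 3 lower, 0 to 1 isoform pairs past an unadjusted exact p of 0.05 and 0 to 0 genes called. Among all genes, 232 to 1565 were higher and 131 to 1094 lower at an unadjusted p below 0.05. Signs shared by the 3 experiments left were not counted over all genes. Their shares cannot be below those over 4 experiments. The pair past it was Pfkp to Pfkl without the obese pool of experiment 2 (0.70, exact p = 0.0286) and Pfkp to Pfkm without the lean pool of experiment 3 (0.99, exact p = 0.0286). Each time the pool left out was the one that made the groups overlap. With 3 arrays against 4, this is the lowest exact p possible. With experiment 1 left out under the block, 4 members had an unadjusted p below 0.05 (Slc2a1, Hk3, Pfkm and Pfkp). Of all 18820 genes, 1345 were higher and 616 lower at such a p there. With 3 arrays in each diet, an exact p cannot go below 0.1. The causes were not tested.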

Other observations

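Arrdc4, an arrestin related to Txnip that also lowers glucose uptake, was chosen after its values were seen. Its levels were 7.32, 6.78, 6.75 and 6.61 in obese pools, against 6.96 to 7.83 in lean pools, a difference of −0.33 (SE 0.24), and it was lower in obese pools in all 4 experiments under each scaling (limma, adjusted p = 0.990). Slc16a1, which encodes the lactate transporter MCT1 and was also chosen after its values were seen, had levels of 6.43, 6.41, 6.26 and 6.41 in obese pools, against 6.26, 5.93, 5.97 and 6.07 in lean pools. Its difference was 0.32 (SE 0.09; limma, unadjusted p = 0.00956, adjusted p = 0.982), higher in obese pools in all 4 experiments under each scaling.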
